A study of Arabidopsis thaliana with 96 samples.

Results

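Leaves of Arabidopsis thaliana grown in high light with 5 mM nitrate were compared with leaves of plants grown in the same light with 2 mM nitrate, the lowest supply of the experiment. Both groups were chosen by their sample titles and held 8 plants each, so the comparison used 16 of 96 libraries. All plants were the wild-type accession Col-0, germinated on Murashige and Skoog medium with sucrose, moved to clay pots 10 days after germination and given half-strength Hoagland solution that differed between groups in its nitrate concentration. They grew in 8 h days and 16 h nights at 23 °C by day and 21 °C by night, and 2 leaf punches of each plant were frozen 30 days after transplanting. Each library holds the polyadenylated RNA of 1 plant. The experiment as a whole crossed 3 light levels with 4 nitrate supplies in 12 groups. High light was taken to be the brightest of the stated photon flux densities, 500 µmol m-2 s-1, because the titles give the levels as words only.

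Nitrate is taken up by roots, reduced to ammonium by nitrate reductase and nitrite reductase and built into amino acids with carbon skeletons that come from photosynthesis. When carbon is fixed faster than nitrogen can be assimilated, leaves are known to store starch and to make flavonoids and anthocyanins, phenolic compounds that contain no nitrogen. Salicylic acid, made from chorismate through isochorismate, is the hormone of defence against biotrophic pathogens, and its pathway can also be active in leaves that no pathogen has reached.

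At 5 mM, 973 genes were higher and 1393 were lower than at 2 mM, which is 4.99% and 7.14% of the 19498 genes tested. Of these, 201 were at least 2-fold higher and 530 at least 2-fold lower. A gene is called higher or lower where the Benjamini-Hochberg adjusted p of edgeR's quasi-likelihood test over all tested genes is under 0.05. Called higher at 5 mM were 9 of 14 genes of early flavonoid synthesis, 6 of 17 of starch synthesis and 7 of 16 of starch breakdown. Called lower were 10 of 17 genes of salicylic acid and defence and 5 of 13 that mark sugar shortage. No listed gene for nitrate reduction, light harvesting, photosystems or the Calvin cycle was called. The median log2 change of all tested genes was 0.01.

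The 16 libraries held between 11.1 M and 16.7 M counts each (M, 1000000 counts; median 13.6 M) and 21282 to 22239 genes with counts. Leaf mesophyll markers were detected in all of them. The small subunit of Rubisco, RBCS1A, ran from 2717 to 8893 counts per 1000000 counts (CPM), the unit of all levels below. The antenna gene LHCB2.1 had medians of 544 CPM at 2 mM and 555 CPM at 5 mM, with lowest plants at 259 and 145 CPM. CA1 had medians of 1222 CPM at 2 mM and 821 CPM at 5 mM, with lowest plants at 423 and 48.9 CPM. Of 8 root and flower markers, 7 had medians of at most 0.146 CPM in both groups. The exception, SCR, which is also active in bundle sheath cells of leaves, had medians of 30.6 CPM at 2 mM and 20.7 CPM at 5 mM and was called lower (log2 change -0.45, adjusted p = 0.024), a call lost without plant 2, 6 or 7 at 2 mM (adjusted p from 0.053 to 0.091). Of 6 epidermis markers, 6 guard and myrosin cell markers and 8 vascular markers, edgeR, DESeq2 and limma-voom each called 0, and 1 in each list had an unadjusted p under 0.05. In bulk leaf tissue, fewer cells of a type and less RNA per cell cannot be told apart.

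The plants were not alike within a group, and the number of calls depended on which were used. Library codes fall into 4 consecutive sets of 24 libraries, each with 2 plants of each group. What the sets stand for is not stated, and the model carries a term for them. In code set 1 the 2 plants at 5 mM, plants 1 and 2, carried high levels of defence genes. At 2 mM plants 1 and 8 carried lower levels of most of these genes than plants 2 to 7. Without code set 1, 10.0% of genes were called higher and 11.5% lower. Without code set 2 the shares were 1.0% and 1.45%, without code set 3 they were 0.281% and 0.353%, and without code set 4 they were 3.38% and 2.35%. Fits within a single code set, with 2 plants against 2, called 0 genes in code set 1, 11 in code set 2, 2380 in code set 3 and 0 in code set 4. In code sets 1 and 4, 687 and 1590 genes had an unadjusted p under 0.05. Of the 2366 called genes, 2344 kept their sign whichever set was left out, but 85 were called each time, 37 of them higher (0.19% of tested genes) and 48 lower (0.246%).

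**Figure D1:**
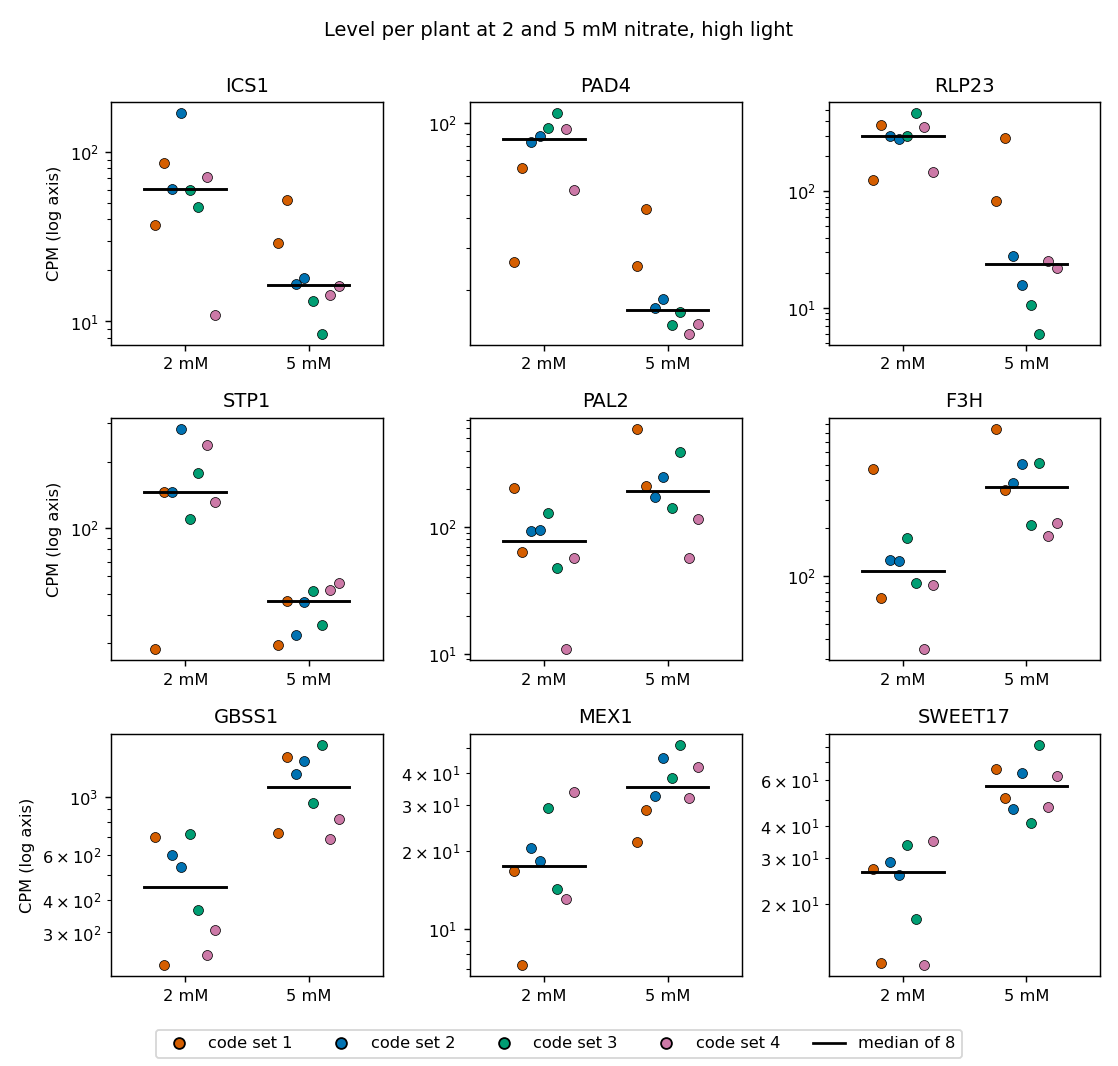
CPM on a log axis of 9 genes in each of the 8 plants at 2 mM and the 8 at 5 mM nitrate in high light, coloured by code set, with a line at the median. ICS1, PAD4, RLP23 and STP1 lie lower at 5 mM and the other 5 genes lie higher, and SWEET17 is the one of the 9 whose groups do not overlap.

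Promoters of PAL2 and F3H, which rose, and of ICS1 and PAD4, which fell, are shown because the flavonoid and salicylic acid results turn on these genes. Each run is the 250 bases before the annotated gene start, on the gene's strand, from the RefSeq assembly TAIR10.1. Capitals mark the G-box CACGTG, an element of light-responsive promoters bound by bZIP and bHLH factors, and the W-box cores TTGACC and TTGACT, bound by WRKY factors, searched on both strands. The 2 motifs share no letters of a match in these windows.
PAL2, chr3:19747115-19747364, minus strand: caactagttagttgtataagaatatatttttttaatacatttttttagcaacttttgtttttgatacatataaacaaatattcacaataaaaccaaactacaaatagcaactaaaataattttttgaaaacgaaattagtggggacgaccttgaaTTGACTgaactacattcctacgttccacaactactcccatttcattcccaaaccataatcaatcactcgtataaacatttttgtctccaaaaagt
F3H, chr3:19024942-19025191, plus strand: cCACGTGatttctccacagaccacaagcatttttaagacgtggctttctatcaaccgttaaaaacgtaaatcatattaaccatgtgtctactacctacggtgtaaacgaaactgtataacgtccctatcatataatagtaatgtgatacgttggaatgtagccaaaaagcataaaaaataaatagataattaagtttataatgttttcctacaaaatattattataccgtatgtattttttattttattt
ICS1, chr1:28070045-28070294, plus strand: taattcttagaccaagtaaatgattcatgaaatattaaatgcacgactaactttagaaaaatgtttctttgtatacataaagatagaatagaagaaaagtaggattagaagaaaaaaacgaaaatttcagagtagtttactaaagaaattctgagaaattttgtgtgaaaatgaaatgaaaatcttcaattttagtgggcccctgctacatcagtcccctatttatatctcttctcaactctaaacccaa
PAD4, chr3:19430845-19431094, plus strand: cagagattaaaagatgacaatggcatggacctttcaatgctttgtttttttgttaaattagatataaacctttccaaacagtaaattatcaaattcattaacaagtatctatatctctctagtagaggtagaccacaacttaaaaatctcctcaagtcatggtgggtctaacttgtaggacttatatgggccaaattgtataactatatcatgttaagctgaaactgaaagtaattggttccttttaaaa
The F3H window holds 1 G-box, 249 bases before the start, and the PAL2 window holds 1 W-box core, 95 bases before it. The windows of ICS1 and PAD4 hold neither motif. Over 27443 protein-coding genes, 6.49% of windows of this length hold the G-box and 28.4% hold a W-box core, and a match is a description of the letters in a window.

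Of 14 tested genes of early phenylpropanoid and flavonoid synthesis, 9 were called higher and 0 lower, with a median log2 change of 1.35. Without code sets 1 to 4 in turn, 13, 2, 1 and 4 members were called higher. PAL2, one of the phenylalanine ammonia-lyases that open the pathway, ran from 10.8 to 203 CPM at 2 mM with a median of 78.2, and from 57.2 to 592 CPM at 5 mM with a median of 193. In 4 of 8 plants at 5 mM PAL2 lay above every plant at 2 mM, and the groups overlapped. Its fitted log2 change was 1.46 (SE 0.31, adjusted p = 0.0012), and it was called without each code set in turn, with changes of 1.4 to 1.55.

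F3H, flavanone 3-hydroxylase, ran from 34.6 to 471 CPM at 2 mM (median 108) and from 179 to 841 CPM at 5 mM (median 365). At 2 mM plant 1 alone reached the range of the 5 mM plants, and the highest plant at 5 mM was also its plant 1. The log2 change of F3H was 1.48 (SE 0.37, adjusted p = 0.0054), and the adjusted p was 0.081 without code set 2 and 0.098 without code set 3. The flavonol glycosyltransferases UGT78D1 and UGT78D2, which attach rhamnose and glucose, rose by log2 changes of 0.85 and 1.16 (adjusted p = 0.0078 and 0.013). Without code set 3 both had an adjusted p of 0.18. The adjusted p of UGT78D2 was 0.073 without code set 2, and that of UGT78D1 was 0.065 without code set 4. UGT78D1 ran from 58.9 to 170 CPM at 5 mM and from 18.5 to 74.9 CPM at 2 mM, so that its groups overlapped.

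Chalcone synthase itself, CHS, did not pass the test. Its levels ran from 91.5 to 2023 CPM at 2 mM (median 640) and from 1157 to 2966 CPM at 5 mM (median 1609). In 7 of 8 plants at 2 mM CHS lay below every plant at 5 mM, and the exception overlapped the 5 mM range. The fitted log2 change was 1.47 (SE 0.58, adjusted p = 0.08), and 1.69 without code set 1, where it was called (adjusted p = 0.015).

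Of 10 genes of the later steps, which turn flavonoids into anthocyanins, 1 was called, higher, beside 4.99% of all genes. The median log2 change of the 10 was 1.12. A fit of the 16 libraries alone called 7 of the 10 higher, among 613 genes called higher and 1265 called lower over all genes. The gene called in the main fit was SCPL10, a serine carboxypeptidase-like acyltransferase that adds sinapoyl groups. SCPL10 ran from 10.7 to 197 CPM at 2 mM (median 38.5) and from 60.6 to 405 CPM at 5 mM (median 140), with 1 plant at 2 mM inside the 5 mM range. The fitted log2 change was 1.44 (SE 0.30, adjusted p = 0.001), and it was called without each code set. Dihydroflavonol reductase, DFR, had a median of 386 CPM at 2 mM and 775 CPM at 5 mM and a log2 change of 1.03 (SE 0.80, adjusted p = 0.42). Among 15 regulators of the pathway 3 were called higher and 1 lower, beside 4.99% and 7.14% of all genes. Their median log2 change was 0.94. The higher ones were MYB113, EGL3 and GL3, and without code sets 1 to 4 in turn 5, 1, 0 and 2 regulators were called higher. The lower one was TTG1, the WD40 subunit of the MYB-bHLH-WD40 complex, with a log2 change of -0.46 (adjusted p = 0.0094, and 0.1 and 0.17 without code sets 2 and 3).

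Of 17 tested genes of starch synthesis, 6 were called higher and 0 lower (median log2 change 0.35). Of 16 genes of breakdown, 7 were called higher and 0 lower (median 0.43). Without code set 3 these counts fell to 2 and 1, and without code set 2 also to 2 and 1.

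GBSS1, the granule-bound synthase that makes amylose, ran from 224 to 724 CPM at 2 mM (median 451) and from 688 to 1596 CPM at 5 mM (median 1094). In 7 of 8 plants at 5 mM GBSS1 lay above every plant at 2 mM. The log2 change of GBSS1 was 1.28 (SE 0.27, adjusted p = 0.0012), and 1.24 to 1.3 without each code set, called every time. APS1, the small subunit of ADP-glucose pyrophosphorylase, which makes the substrate of starch synthesis, rose by a log2 change of 0.45 (adjusted p = 0.0028, and 0.064 and 0.057 without code sets 2 and 3). SBE2.2, a branching enzyme, rose by 0.64 (adjusted p = 0.0038, and 0.1 without code set 3).

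MEX1, the chloroplast envelope carrier that exports maltose at night, ran from 7.23 to 33.8 CPM at 2 mM (median 17.5) and from 21.7 to 51.3 CPM at 5 mM (median 35.4). In 4 plants at 5 mM MEX1 lay above all plants at 2 mM and in 6 plants at 2 mM it lay below all plants at 5 mM. MEX1 had a log2 change of 0.94 (SE 0.19, adjusted p = 0.00087), called without each code set. SEX4, a phosphatase that removes phosphate from starch granules, ISA3, a debranching enzyme, and DPE2, a glucanotransferase that uses maltose in the cytosol, rose by log2 changes of 0.94, 1.27 and 0.69 (adjusted p = 0.0069, 0.0088 and 0.0085). Without code set 3 these 3 adjusted p-values were 0.12, 0.1 and 0.17, and without code set 2 they were 0.094, 0.11 and 0.069. ISA3 lay at 255 to 873 CPM at 5 mM and at 60.2 to 485 CPM at 2 mM, and in 7 of 8 plants at 5 mM it was above every plant at 2 mM.

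Of 13 tested genes that leaves raise when sugar runs short, 5 were called lower and 0 higher, with a median log2 change of -0.58. Without code sets 1 to 4 in turn, 4, 2, 1 and 3 were called lower, and 1 was called higher without code set 1. BGAL4, a beta-galactosidase, ran from 0.827 to 71.0 CPM at 2 mM (median 3.11) and from 0.05 to 2.98 CPM at 5 mM (median 0.252). At 2 mM plants 2 and 4 had 71.0 and 49.0 CPM, and the next highest was plant 7 with 7.77 CPM. The 2 highest plants at 5 mM were plants 1 and 2, with 2.98 and 2.86 CPM, while the other 6 lay below all plants at 2 mM. The log2 change of BGAL4 was -4.28 (SE 0.79, adjusted p = 0.00027) and was called without each code set.

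STP1, a proton-coupled hexose importer of the plasma membrane, ran from 27.9 to 281 CPM at 2 mM (median 145) and from 29.3 to 55.9 CPM at 5 mM (median 46.2). In 7 of 8 plants at 2 mM STP1 lay above every plant at 5 mM, and in plant 1 it lay below all of them. Its log2 change was -1.80 (SE 0.39, adjusted p = 0.0015), with an adjusted p of 0.057 without code set 3. TPS11 and TPS9, of the class II trehalose-phosphate synthase-like proteins, fell, with log2 changes of -1.33 and -1.47 (adjusted p = 0.013 and 0.01). The call of TPS9 was lost without plant 2 at 2 mM (log2 change -1.01, adjusted p = 0.096). Without code sets 2 and 3 the adjusted p of TPS9 was 0.11 and 0.084. TPS11 had an adjusted p of 0.17, 0.12 and 0.08 without code sets 2, 3 and 4.

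**Figure D2:**
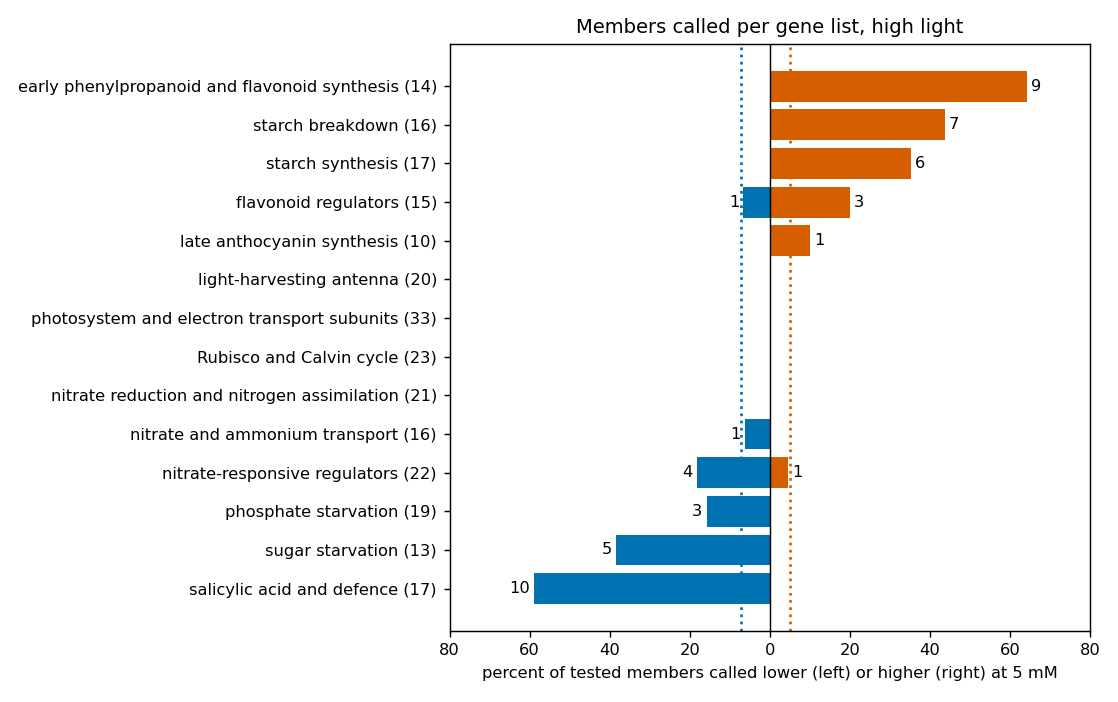
Percent of the tested members of 14 gene lists that were called lower (left) or higher (right) at 5 mM nitrate, with the number called at each bar, the number tested in brackets and dotted lines at the shares over all genes, 7.14% and 4.99%. Bars reach farthest for early flavonoid synthesis (9 of 14 higher) and for salicylic acid and defence (10 of 17 lower).

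Of 17 tested genes of salicylic acid synthesis, signalling and defence, 10 were called lower and 0 higher, with a median log2 change of -1.73. ICS1, isochorismate synthase, which commits chorismate to salicylic acid, ran from 10.9 to 169 CPM at 2 mM (median 60.2) and from 8.48 to 52.1 CPM at 5 mM (median 16.4). In 5 of 8 plants at 2 mM ICS1 lay above every plant at 5 mM, and in plants 1, 6 and 8 at 2 mM it lay within the range of the 5 mM plants. The log2 change of ICS1 was -1.66 (SE 0.28, adjusted p = 6.3e-05), and -1.27 to -2.20 without each code set, called every time.

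PAD4, a lipase-like protein that acts with EDS1 in basal and receptor-triggered resistance, ran from 26.2 to 110 CPM at 2 mM (median 86.3) and from 13.1 to 43.5 CPM at 5 mM (median 16.5). In 7 of 8 plants at 5 mM PAD4 lay below every plant at 2 mM, and the exception was plant 2. PAD4 had a log2 change of -2.10 (SE 0.53, adjusted p = 0.0054), with an adjusted p of 0.15 without code set 3 and 0.064 without code set 4. ALD1, the aminotransferase that starts the synthesis of pipecolic acid, a signal of systemic resistance, had a median of 9.0 CPM at 2 mM and 0.334 CPM at 5 mM and a log2 change of -4.76 (SE 1.21, adjusted p = 0.0056). The change of ALD1 was -3.27 without code set 3 (adjusted p = 0.25), and within code set 1 it was 0.01.

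PR1, the pathogenesis-related protein used as a marker of salicylic acid signalling, ran from 0.137 to 188 CPM at 2 mM (median 51.4) and from 0.0673 to 70.7 CPM at 5 mM (median 1.29). Plants 1 and 2 at 5 mM, with 70.7 and 34.7 CPM, lay within the range of the 2 mM plants, and plant 8 at 2 mM, with 0.137 CPM, lay among the lowest 5 mM plants. The log2 change was -5.48 (SE 1.54, adjusted p = 0.013), with an adjusted p of 0.32 without code set 3 and 0.053 without code set 4. Within code set 1 alone the fitted change of PR1 was 0.57, in the other direction.

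The list followed the same split among plants. In plants 3 to 8 at 5 mM, between 0 and 1 of the 17 members lay above the median of the 16 plants, against 12 in plant 1 and 17 in plant 2. At 2 mM the count was 14 to 17 in plants 2 to 7 and 4 in plants 1 and 8. Plant 1 at 2 mM still lay above plants 3 to 8 at 5 mM, except for EDS5, NPR1, PR1, WRKY70 and ALD1. For PR2 it had 339 CPM, against at most 83.1 CPM in those plants and 27.9 CPM in plant 8 at 2 mM. Without code set 1, 16 members were called lower (median log2 change -2.50). Without code sets 2, 3 and 4 the counts called lower were 4, 1 and 4. None of these 4 fits called a member higher.

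**Figure D3:**
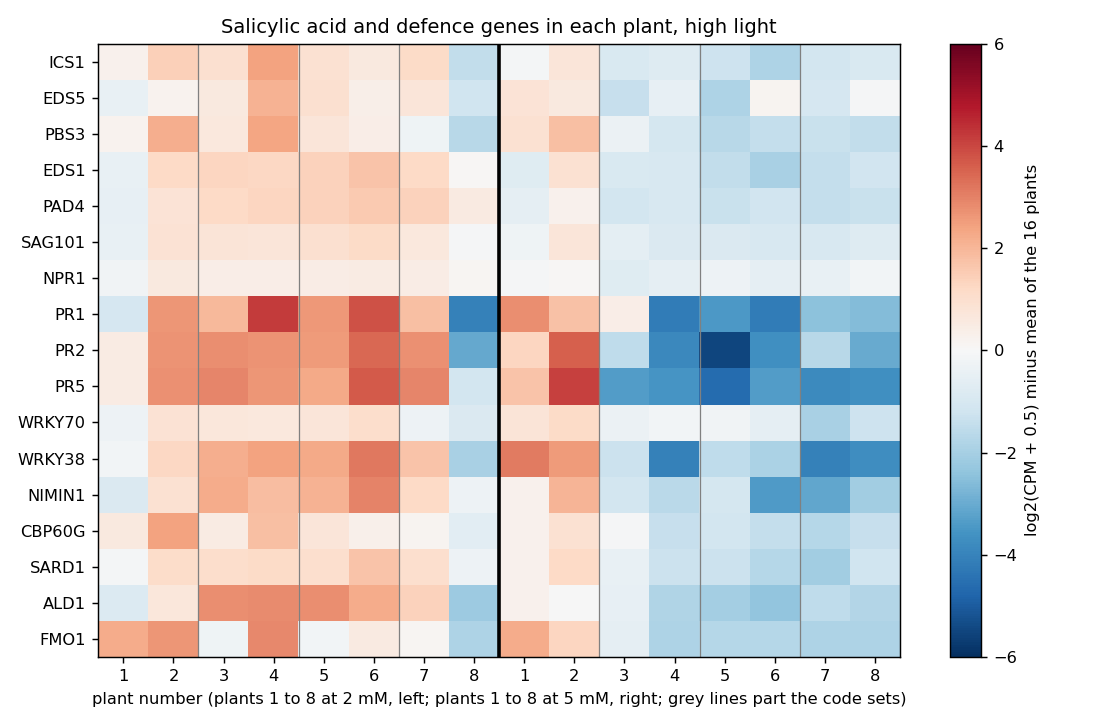
Heat map of the 17 salicylic acid and defence genes (rows) in the 16 plants (columns), coloured by log2(CPM + 0.5) minus the gene's mean over the 16 plants. Plants 2 to 7 at 2 mM and plants 1 and 2 at 5 mM are mostly above the mean, and plants 3 to 8 at 5 mM and plant 8 at 2 mM mostly below it.

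RLP23, a receptor-like protein that perceives a peptide of microbial NLP proteins, ran from 126 to 468 CPM at 2 mM (median 301) and from 5.99 to 286 CPM at 5 mM (median 23.7). In 7 of 8 plants at 5 mM RLP23 lay below every plant at 2 mM, plant 2 being the exception. RLP23 had a log2 change of -3.56 (SE 0.89, adjusted p = 0.005), with an adjusted p of 0.21 without code set 3.

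The cysteine-rich receptor-like kinases CRK37, CRK23 and CRK6 fell, with log2 changes of -5.07, -3.98 and -3.41 (adjusted p = 0.0018, 0.00091 and 0.0024). The receptor-like protein RLP43, the glutamate receptor-like channel GLR2.8, the calcium-proton antiporter of the vacuole CAX3 and the peptide transporter PTR3 fell, with log2 changes of -3.30, -3.13, -3.42 and -3.16 (adjusted p = 0.0054, 0.0054, 0.014 and 0.0044). Without code set 3 none of these 7 genes was called (adjusted p from 0.073 for CRK23 to 0.28 for CAX3), and each kept its direction. CAX3 also lost its call without code sets 2 and 4 (adjusted p = 0.054 and 0.082), and GLR2.8 without code set 4 (adjusted p = 0.054).

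Of 21 tested genes of nitrate reduction and nitrogen assimilation, edgeR, DESeq2 and limma-voom each called 0, and 2 had an unadjusted p under 0.05. A fit of the 16 libraries alone, which called 1265 genes lower in all, called 2 of the 21 lower and 0 higher. NIA1, a nitrate reductase, ran from 1.92 to 20.2 CPM at 2 mM (median 3.38) and from 0.3 to 12.4 CPM at 5 mM (median 2.6), with overlapping groups and a log2 change of -0.79 (SE 0.59, adjusted p = 0.41). NIR1, nitrite reductase, had medians of 47.1 and 59.1 CPM and a log2 change of 0.34 (SE 0.30, adjusted p = 0.48). The asparagine synthetase ASN1 had medians of 7.5 and 8.65 CPM and means of 15.9 and 8.29 CPM. Its log2 change was -0.85 (SE 0.79, adjusted p = 0.52).

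NRT2.1, the main high-affinity nitrate importer of roots, stayed at or below 0.596 CPM in all 16 leaves. Of 16 transporters for nitrate and ammonium, 1 was called, and it was lower, a share near the 7.14% of all genes called lower. A fit of the 16 libraries alone called 2 of the transporters lower. The gene called in the main fit was NRT3.1, the partner protein of the NRT2 importers. It ran from 12.8 to 51.8 CPM at 2 mM (median 39.3) and from 5.85 to 25.0 CPM at 5 mM (median 12.1). In 7 of 8 plants at 2 mM NRT3.1 lay above all plants at 5 mM. Its log2 change was -1.74 (SE 0.53, adjusted p = 0.022), and the call was lost without plant 6 at 2 mM (-1.59, adjusted p = 0.058) and without code sets 2, 3 and 4 (adjusted p = 0.084, 0.27 and 0.13).

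The amino acid importer LHT1 fell by 1.93 on the log2 scale (SE 0.56, adjusted p = 0.015), from a median of 189 CPM to 55 CPM. LHT1 was the one gene called among 11 amino acid and peptide transporters, a share near the 7.14% of all genes called lower. The call of LHT1 was lost without code sets 2, 3 and 4 (adjusted p = 0.1, 0.29 and 0.066), and its change within code set 1 was 0.23. Among 22 nitrate-responsive regulators 4 were called lower and 1 higher, beside 7.14% and 4.99% of all genes. Without code set 2 or code set 3 edgeR called none of these regulators. HHO3, a repressor of the nitrate starvation response, had medians of 14 and 3.17 CPM and a log2 change of -1.46 (adjusted p = 0.021), and its call was lost without plant 2 or plant 4 at 2 mM and without plant 4 or plant 6 at 5 mM (adjusted p from 0.054 to 0.067). Without code sets 2, 3 and 4 the adjusted p of HHO3 was 0.24, 0.29 and 0.06. NLP7, a transcription factor that binds nitrate and starts the primary nitrate response, fell by 0.47 (adjusted p = 0.018), and its call was lost without plant 2 at 2 mM (adjusted p = 0.07) and without plant 6 at 5 mM (adjusted p = 0.054). Without code sets 1, 2 and 3 the adjusted p of NLP7 was 0.067, 0.1 and 0.13.

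Of 20 antenna genes, 33 photosystem and electron transport genes and 23 genes of Rubisco and the Calvin cycle, edgeR and DESeq2 called 0, and limma-voom called 1 antenna gene. In these lists 2, 2 and 1 genes had an unadjusted p under 0.05. Without code set 1 edgeR called 1 antenna gene higher and 1 lower, 3 photosystem and electron transport genes higher and 1 Rubisco and Calvin cycle gene higher. Without code set 2, 3 or 4 it called 0 in these lists, and without plant 8 at 2 mM it called 1 photosystem and electron transport gene higher. RBCS1A had a median of 4841 CPM at 2 mM and 5049 CPM at 5 mM, with overlapping groups and a log2 change of -0.16 (SE 0.27, adjusted p = 0.74). Its fitted change was 0.06 within code set 2 and 0.05 within code set 3. The share of counts from chloroplast genes was 1.83% ± 0.218 (SD, n = 8) at 5 mM and 1.67% ± 0.499 (SD, n = 8) at 2 mM, a difference that an exact two-sided permutation test within code sets over 1296 assignments did not separate (p = 0.424). By the same exact permutation test, the mitochondrial share (0.184% ± 0.0366 against 0.208% ± 0.0431) and the share of the 10 most abundant genes (5.0% ± 0.722 against 4.38% ± 0.829) gave p = 0.154 and p = 0.119, both 0.231 after adjustment over the 3 shares.

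Of 19 phosphate starvation genes 3 were called lower, beside 7.14% of all genes, and 0 higher. None of the 19 was called by edgeR without code set 2 or code set 3. PAP17 and PAP10 are purple acid phosphatases that release phosphate from organic compounds, and PLDZ2 is a phospholipase that breaks down phospholipids. They fell, with log2 changes of -1.7, -0.8 and -1.2 (adjusted p = 0.005, 0.0038 and 0.0032), and without code set 3 the adjusted p-values were 0.12, 0.15 and 0.13. PLDZ2 ran from 4.65 to 27.6 CPM at 2 mM and from 4.04 to 22.8 CPM at 5 mM, with broad overlap.

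CSLA01 and CSLA10, both called higher, belong to the glucomannan synthase family. CSLA01 ran from 2.28 to 104 CPM at 2 mM (median 29.6) and from 39.3 to 393 CPM at 5 mM (median 140), and in 4 plants at 5 mM it lay above all plants at 2 mM. Its log2 change was 2.48 (SE 0.53, adjusted p = 0.0014), called without each code set. CSLA10 rose by 1.82 (SE 0.41, adjusted p = 0.0024), with an adjusted p of 0.052 without code set 4.

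VSP2, a vegetative storage protein induced by jasmonate, ran from 19.8 to 600 CPM at 2 mM (median 92.8) and from 34.8 to 1928 CPM at 5 mM (median 507). Its groups overlapped widely. The log2 change was 1.91 (SE 0.60, adjusted p = 0.027), and the call was lost without plant 2, 6 or 7 at 2 mM and without plant 4 or 6 at 5 mM (adjusted p from 0.059 to 0.13), and without code sets 2, 3 and 4 (adjusted p = 0.11, 0.27 and 0.06). VSP2 was the one member called among 15 jasmonate and wounding genes, a share near the 4.99% of all genes called higher. The median log2 change of this list was 0.58, and 12 of the 15 were positive. Without code set 1, 4 members were called higher and 1 lower. By the rule for named genes given below, the 12 largest called rises were CSLA01, CSLA10, JAL23, VSP2, MYB113, THI2.1, PDF1.2c, JR1, MBP2, MAPKKK17, XTH31 and NUDT24. JAL23, a jacalin-related lectin, rose by 2.61 (SE 0.59, adjusted p = 0.0022), from a median of 28.4 CPM to 254 CPM, with an adjusted p of 0.055 without code set 3.

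SWEET15, a sucrose exporter also raised in senescence, was low but higher at 5 mM. It ran from 0.205 to 3.51 CPM at 2 mM (median 1.25) and from 2.31 to 12.0 CPM at 5 mM (median 4.59). Its log2 change was 2.00 (SE 0.48, adjusted p = 0.0039). Among 21 senescence and autophagy genes 1 was called higher, SWEET15, and 1 lower, with a median log2 change of -0.33. These shares are near the 4.99% and 7.14% of all genes. TOC1, an evening gene of the circadian clock, fell by 1.15 (SE 0.28, adjusted p = 0.0037), from a median of 43.7 CPM to 19.2 CPM. It was the one gene called among 18 clock genes, a share near the 7.14% of all genes called lower. The adjusted p was 0.084 for SWEET15 and 0.096 for TOC1 without code set 3.

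For 41 genes, 0.21% of those tested, all 8 plants at 5 mM lay above all 8 at 2 mM, and for 26 genes, 0.133%, all lay below. The 9 genes named from here to the end of the next paragraph were picked after their values were seen. SWEET17, a fructose carrier of the vacuole membrane, ran from 11.6 to 34.8 CPM at 2 mM (median 26.5) and from 40.8 to 81.7 CPM at 5 mM (median 56.6). No plant of one group reached the other, and the log2 change was 1.25 (SE 0.20, adjusted p = 4.1e-05). GUN1, a chloroplast protein of plastid-to-nucleus signalling, ran from 161 to 259 CPM at 2 mM (median 199) and from 117 to 147 CPM at 5 mM (median 128), again with no overlap. Its log2 change was -0.68 (SE 0.09, adjusted p = 4.8e-06).

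Both stand among the 85 genes called whichever code set was left out. That group also held HXK2, a hexokinase (log2 change 1.00, adjusted p = 7.4e-05), and the oligopeptide transporter OPT4 (-2.07, adjusted p = 0.0001). It held the transcription factor WRKY17 (-1.73, adjusted p = 0.00012), the kinase SNRK2-8 of the abscisic acid-related SnRK2 family (-1.61, adjusted p = 0.00045) and the low-affinity nitrate transporter NRT1:2 (-0.79, adjusted p = 0.0023). NRT1:2 is not a member of the nitrate and ammonium transport list above. Smaller falls came from EFS, a histone H3 lysine methyltransferase, and SYD, a chromatin remodelling ATPase, at log2 changes of -0.52 and -0.49 (adjusted p = 3.1e-05 and 0.00021). EFS ran from 45.9 to 74.2 CPM at 2 mM and from 34.1 to 49.6 CPM at 5 mM. Of the list members above, ICS1, BGAL4, MEX1, GBSS1, SCPL10 and PAL2 belong to the 85, as does CSLA01.

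**Figure D4:**
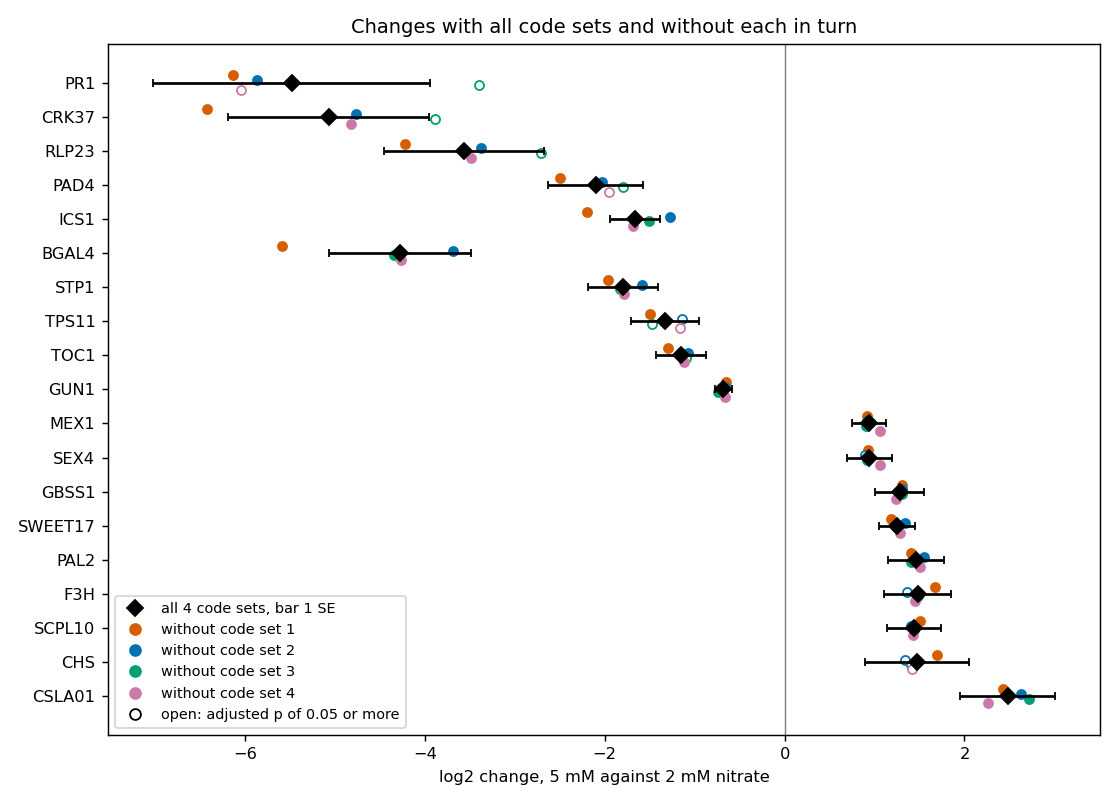
Fitted log2 changes of 19 genes at 5 mM against 2 mM nitrate with all 4 code sets (diamond, bar 1 SE) and without each code set in turn (circles, open where the adjusted p is 0.05 or more). No circle lies on the other side of 0 from its diamond, while PR1, CRK37, RLP23, PAD4, TPS11, SEX4, F3H and CHS have open circles among others.

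The same step of nitrate was also made in the other lights. In low light 1 gene of 19498 was called (0.00513%), with 2509 genes at an unadjusted p under 0.05, 6 calls by DESeq2 and 0 by limma-voom. In mid light 6.72% of genes were called higher and 8.43% lower, and these calls rest on code set 2: without it edgeR called 0 genes there, with 1933 at an unadjusted p under 0.05. The change of 5 against 2 mM was larger in high than in low light (or fell less) for 2.02% of genes and smaller for 0.933%. Against mid light the shares were 3.24% and 3.78%. Without code set 3, edgeR called 0 differences between high and low light, with 1828 at an unadjusted p under 0.05, and 53 between high and mid light, and without code set 2 the numbers were 14 and 46.

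GBSS1 had a log2 change of -0.78 in low light and -0.48 in mid light, neither called, and its change in high light was larger by 2.06 and 1.76 (adjusted p = 0.0016 and 0.0029). ISA3 and SEX4 differed from low light by 2.22 and 1.79 (adjusted p = 0.0059 and 0.0029). None of these differences was called without code set 3 (adjusted p from 0.08 to 0.15). Without code set 2 the adjusted p was 0.12 for ISA3 and 0.095 for SEX4, while those of GBSS1 were 0.035 and 0.036. Of the starch lists, 4 synthesis genes and 5 breakdown genes had a larger change in high than in low light. The counts were 1 and 0 without code set 2, 0 and 0 by edgeR without code set 3, and 2 and 2 without code set 4.

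F3H had a log2 change of -0.46 in low light and -1.39 in mid light, where it was called lower (adjusted p = 0.009), so its change in high light was larger by 1.94 and 2.87 (adjusted p = 0.027 and 0.00077). The difference from low light was lost without plant 2 at 2 mM (adjusted p = 0.052) and without code sets 2, 3 and 4 (adjusted p = 0.2, 0.32 and 0.099). That from mid light had an adjusted p of 0.069 without code set 3. PAL2 differed from mid light by 1.86 (adjusted p = 0.0053), with 0.07 without code set 2 and 0.16 without code set 3. TT8, a bHLH activator of anthocyanin genes, and GSTF12, a glutathione transferase-like carrier of anthocyanins, differed from low light by 3.69 and 4.03 (adjusted p = 0.032 and 0.029) without being called in high light alone (log2 changes 1.23 and 1.13, adjusted p = 0.11 and 0.31). Both differences were lost without plant 2 at 2 mM (adjusted p = 0.052 and 0.051). They were also lost without code set 2 (adjusted p = 0.18 and 0.19) and without code set 3 (adjusted p = 0.3 and 0.38). Without code set 4 the adjusted p was 0.068 for TT8 and 0.013 for GSTF12.

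ICS1 had log2 changes of 0.10 in low and -0.05 in mid light, and its change in high light was lower by 1.76 and 1.61 (adjusted p = 0.0064 and 0.0067). STP1 and BGAL4 had changes of 0.72 and 0.89 in low light, not called, and differed between high and low light by -2.52 and -5.17 (adjusted p = 0.0059 and 0.0032). They differed between high and mid light by -2.43 and -5.33 (adjusted p = 0.004 and 0.0016). NLP7 was called higher in mid light, with a log2 change of 0.75 (adjusted p = 0.00014), against -0.47 in high light. Its change thus differed between high and mid light by -1.22 (adjusted p = 0.00021), and the mid light rise is the larger part. That difference was also called without each code set in turn. Without code set 3 the adjusted p of the low light differences was 0.28 for ICS1 and 0.15 for STP1 and BGAL4. That of the mid light differences was 0.16 for ICS1, 0.069 for STP1 and 0.057 for BGAL4. Without code set 4 the mid light difference of STP1 had an adjusted p of 0.07. Without code set 2 the low light differences had an adjusted p of 0.17 for ICS1 and 0.12 for STP1 and BGAL4. The mid light difference of ICS1 was also lost there (adjusted p = 0.12).

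The 2 higher nitrate supplies in high light place these levels in a series. F3H averaged 148 ± 137 CPM (SD, n = 8) at 2 mM, 400 ± 221 at 5 mM, 198 ± 117 at 10 mM and 48.9 ± 30.2 at 20 mM. GBSS1 had medians of 451, 1094, 850 and 318 CPM in the same order, and ISA3 medians of 273, 629, 372 and 64.7 CPM. For these 3 genes the highest median of the 4 supplies was at 5 mM. STP1 had medians of 145, 46.2, 57.5 and 103 CPM and TPS11 medians of 81.3, 27.0, 56.3 and 115 CPM, both lowest at 5 mM.

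ICS1 had medians of 60.2, 16.4, 16.1 and 18.8 CPM. CSLA01 had medians of 29.6, 140, 511 and 883 CPM. NIA1 and NIR1, which were not called between 2 and 5 mM, had medians of 13.8 and 181 CPM at 10 mM and of 108 and 432 CPM at 20 mM. These series describe levels and were not tested here.

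**Figure D5:**
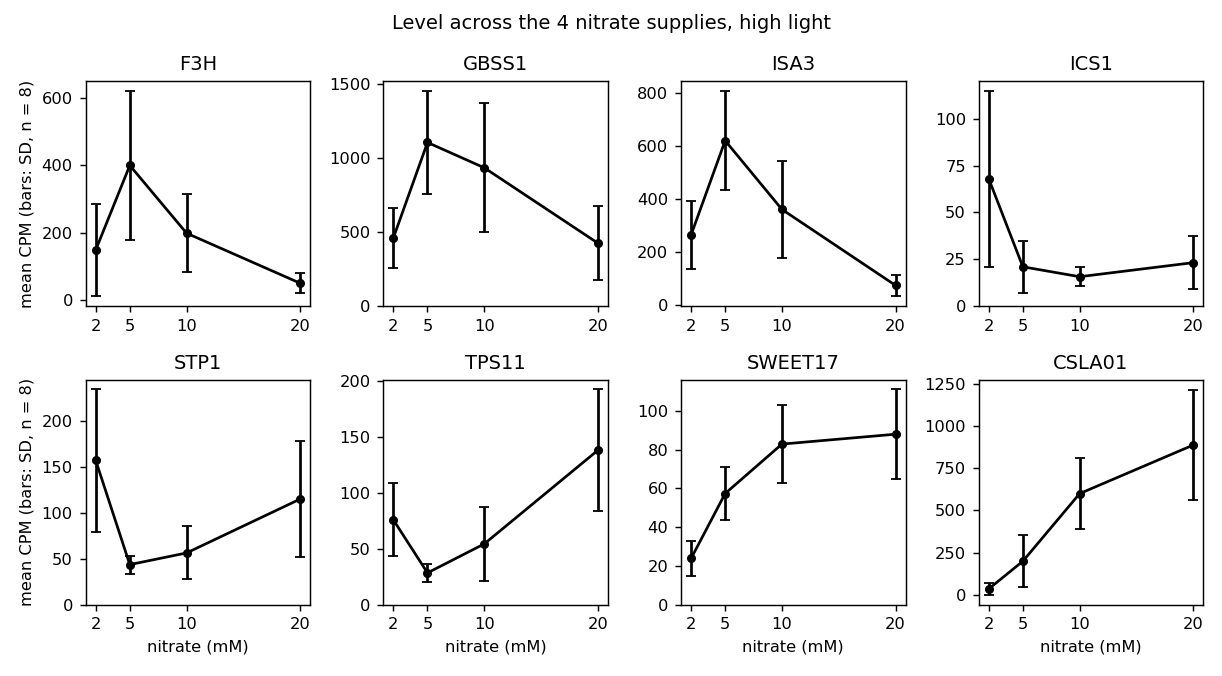
Mean CPM of 8 genes (bars, SD, n = 8) against nitrate supply in high light, from 2 to 20 mM. F3H, GBSS1 and ISA3 are highest at 5 mM, STP1 and TPS11 lowest there, ICS1 is high at 2 mM, and SWEET17 and CSLA01 have higher means at each higher supply.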

How the data were processed

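Polyadenylated RNA of single plants was sequenced from a Kapa stranded library kit, per the labels' protocols. The authors deposited a table of raw counts per gene for 32833 loci, made with STAR 2.5.3a and featureCounts on TAIR10, per the submitters' processing notes. The strand setting is not given in the sources used here, so antisense and overlapping genes may share reads. No count was normalized before deposit.

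Here edgeR 4.0.16 (R 4.3.3) fitted all 96 libraries with TMM scaling, its expression filter by group, and terms for group and code set, with robust quasi-likelihood tests on 81 residual degrees of freedom. DESeq2 1.42.0, limma 3.58.1 (voom), other scaling, filters, blocks and left-out libraries were alternatives. Fitted changes follow mean levels, with a term for code set, and can differ from ratios of medians where single plants are far above the rest. Scripts were tested on simulated counts. Replicates are single plants, so p-values measure the spread between plants. That spread was estimated per gene over all 96 libraries of the 12 groups, not from the 16 libraries compared. A gene that varies more in other groups can therefore miss a call here. Members and gene lists were chosen with earlier results of these data known. Named genes were the 12 largest called changes each way with a mean of at least 5 CPM and 1 sign in all code sets, up to 4 genes of smallest p per list, the 6 largest differences between high and low light each way, and 8 fixed genes, of which the text names a subset. Symbols and promoters came from RefSeq, which matched 32548 loci.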

Additional observations from a re-analysis of the deposited data

Results flagged for a closer look

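In groups of 8 plants, 16 lowest or highest values stood apart from the rest by Dixon's criterion, among 120 groups of gene values examined and the library shares, and chance marks about 5.0% of groups. At 2 mM plant 8 was lowest for CRK37 (2.19 CPM), CRK23 (1.5 CPM), GLR2.8 (0.684 CPM) and CAX3 (0.889 CPM), and it had the highest chloroplast share (2.75%) and the highest share of the 10 most abundant genes (6.2%). At 2 mM plant 1 was lowest for STP1 (27.9 CPM), TPS11 (8.55 CPM) and NRT3.1 (12.8 CPM) and highest for TT8 (89.7 CPM) and GSTF12 (704 CPM), and plant 2 was lowest for SEX4 (58.9 CPM). At 5 mM plant 1 was highest for TT8 (153 CPM) and lowest for ISA3 (255 CPM) and HXK2 (25.3 CPM), and plant 2 was highest for OPT4 (103 CPM).

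The change from 2 to 5 mM was tested between lights with edgeR. In high against low light it differed for ICS1 (-1.76), BGAL4 (-5.17), STP1 (-2.52), F3H (1.94), TT8 (3.69), GSTF12 (4.03), GBSS1 (2.06), SEX4 (1.79) and ISA3 (2.22) on the log2 scale. It differed between high and mid light for ICS1 (-1.61), BGAL4 (-5.33), STP1 (-2.43), PAL2 (1.86), F3H (2.87), GBSS1 (1.76) and NLP7 (-1.22).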

How the results depend on the processing

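The count of called genes in high light was 2366. It was 1092 without the code set term, 0, 11 and 0 within code sets 1, 2 and 4, and 4151, 479, 124 and 1119 without code sets 1 to 4. Leaving out 1 plant gave 1332 (without plant 6 at 2 mM) to 3172 (without plant 1 at 2 mM). For the difference between high and low light (575) the count was 873 with DESeq2, 192 without the code set term, 0 within code sets 1, 2 and 4, and 1993, 14, 0 and 354 without code sets 1 to 4, with 330 to 910 when 1 plant was left out. For the difference between high and mid light (1369) it was 579 without the term, 0, 283 and 0 within code sets 1, 3 and 4, and 2526, 46 and 53 without code sets 1 to 3, with 908 to 1764 when 1 plant was left out. In low light (1) DESeq2 called 6, and limma-voom, the replicate block, fits within each code set and fits without code set 2 or 4 called 0, with 1 whichever plant was left out. In mid light (2954) the count was 1331 without the term, 5733 within code set 2, 0 within code sets 1, 3 and 4, 0 without code set 2 and 814 without code set 3, with 2898 to 3064 when 1 plant was left out. The cause was not tested.

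Same-numbered plants did not deviate together in every pair (correlations from -0.288 to 0.715, 4 of 8 above 0.1), so the numbers were not taken to pair plants. With the replicate number as a block 2331 genes were called. The 16 libraries alone gave 1878 calls without that block and 409 with it, and of 52 called gene values 4 and 30 lost the call there.

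Within code set 1 the fitted changes of ALD1, PR1 and LHT1 were 0.01, 0.57 and 0.23. That of NIR1 was -0.09 within code set 2, and those of RBCS1A were 0.06 and 0.05 within code sets 2 and 3. Of 68 called gene values, 1, 28, 50 and 16 lost the call without code sets 1 to 4. Depth of 11.1 M to 16.7 M counts limits genes near 0 CPM.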
